A study of Mus musculus with 2 samples.

Results

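Imprinted genes are genes expressed mainly from the copy inherited from a single parent, and 35 of them were followed here while primed mEpiSCs (mouse epiblast stem cells) were driven back to the naive state by AMPK activation. The genes were chosen by symbol from a list, and all 35 were present among the 33963 gene symbols of the count table. No measured value was a criterion, but the choice was made with earlier results of these data known. They comprise 20 paternally expressed genes, 14 maternally expressed genes and Gnas, whose isoforms come from either parent, in 18 imprinted domains. The naive mESCs carried a Rex1 promoter-driven GFP reporter and were kept in 2iL, a medium with a MEK inhibitor, a GSK3 inhibitor and LIF. The primed mEpiSCs were the Oct4GIP line (129/Ola), whose transgene expresses GFP and puromycin resistance from Oct4 regulatory sequences, grown with FGF2 and Activin A and plated on mouse embryonic fibroblast feeders for 1 day. The reverting populations were Oct4GIP cells on feeders after 8 days (d8) and 16 days (d16) under LIF and AICAR, an AMPK activator, as well as cells of the latter kind passaged 10 times in 2iL (d16+10p). Each of the 5 populations was 1 tagged sample in 1 single-cell cDNA library, so no difference has a replicate check, no test was made, and the intervals at 95% cover counting error only. The naive and the reverted cells are different lines, and line and state cannot be told apart where they are compared.

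In an imprinted domain, a control region is methylated in the egg or in the sperm, and this mark is kept through the wave of demethylation in the early embryo by ZFP57 and ZFP445, which bind the methylated copy and recruit SETDB1 and DNA methyltransferases through TRIM28. The marked region then sets which parental copy is used, in cis, through an insulator bound by CTCF, as between H19 and Igf2, or through a long noncoding RNA, as with Kcnq1ot1 and Airn. Many paternally expressed genes favour fetal and placental growth and many maternally expressed genes restrain it, and imprints are known to be lost in some pluripotent stem cell cultures. The table gives the total reads of each gene and does not separate the parental copies, so the values below are levels of expression and not the state of the imprint.

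Levels are given in CPM, the reads of a gene per 1000000 reads of all cells of a group summed, and a comparison counts a gene as past 2-fold when its log2 ratio (pseudocount of 1 CPM) was at least 1 in size with an interval that excluded 0, among genes with a mean of at least 5 CPM and at least 50 reads in the compared groups together. Cells of the naive, primed and d16+10p tags also fell in clusters with low Pou5f1 that d8 and d16 cells mostly made up, and whether these were feeder cells, differentiated cells or cells with a wrong tag was not tested. The study loaded 500 naive, 500 primed and 1000 d16+10p cells, fewer than the 801, 1826 and 1151 cells that carry these tags. All cells of a tag may thus include cells of other populations. The pluripotent cells of the naive, primed and d16+10p tags were therefore taken from their home clusters (515 of 801, 418 of 1826 and 881 of 1151 cells), made without the 35 genes, and are called cores. The d16 cells were split by cell at 1000 CPM of Dppa5a, a gene of the naive state, into 1278 Dppa5a-high cells (29.6%) and 3037 Dppa5a-low cells, and 295 d16 cells (6.84%) lay between 500 and 2000 CPM. Of the Dppa5a-high cells, 1213 fell in clusters with high Pou5f1 (Oct4), against 65 Dppa5a-low cells and 35 of 9627 d8 cells. Pou5f1 was at 345 to 408 CPM in the cores and the Dppa5a-high cells, at 56.8 CPM in d8 and at 39.9 CPM in the Dppa5a-low cells. Dppa5a was at 2817 CPM in the naive core and 96.8 CPM in the primed core. Of the cores, d8 and the d16 classes, the primed core had the fewest reads, with 9891460. The median was 8691 reads per cell in the Dppa5a-low cells and 14255 to 24054 in the others of these groups. Cells of the naive, primed and d16+10p tags outside the cores had medians of 9560 to 11044 reads. Their totals ran from 4023301 to 17981749 reads. No cell barcode occurred in more than 1 tag.

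Because free RNA from other cells reaches every cell of the library, the genes were set beside 10 genes of fibroblasts and macrophages, such as Col3a1 and Lyz2. These stood in the cores and the Dppa5a-high cells at 0.104 to 0.420 times their level in all cells pooled. By the same measure, Igf2 and Cdkn1c lay at or below the highest of these background genes in the naive, primed and d16+10p cores, H19 in all of the pluripotent groups but the naive core, and Asb4 in the naive and d16+10p cores. Peg10, Phlda2, Nnat and Gnas joined them in the d16+10p core alone, Slc22a18 in all but the naive core, Magel2 in the naive and d16+10p cores and Slc38a4 in the primed core. Levels of these genes in those groups cannot be told from background, and the part of free RNA in the differences below was not tested. The limit differed by group, as the highest background gene stood at 0.346 in the naive core and 0.412 in the d16+10p core. In the naive core, Peg10 (0.356), Gnas (0.363), Sgce (0.367), Peg3 (0.372), Slc22a18 (0.381), Nnat (0.385), Phlda2 (0.402) and H19 (0.406) lay between these limits. Their naive levels may thus be background too.

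**Figure D1:**
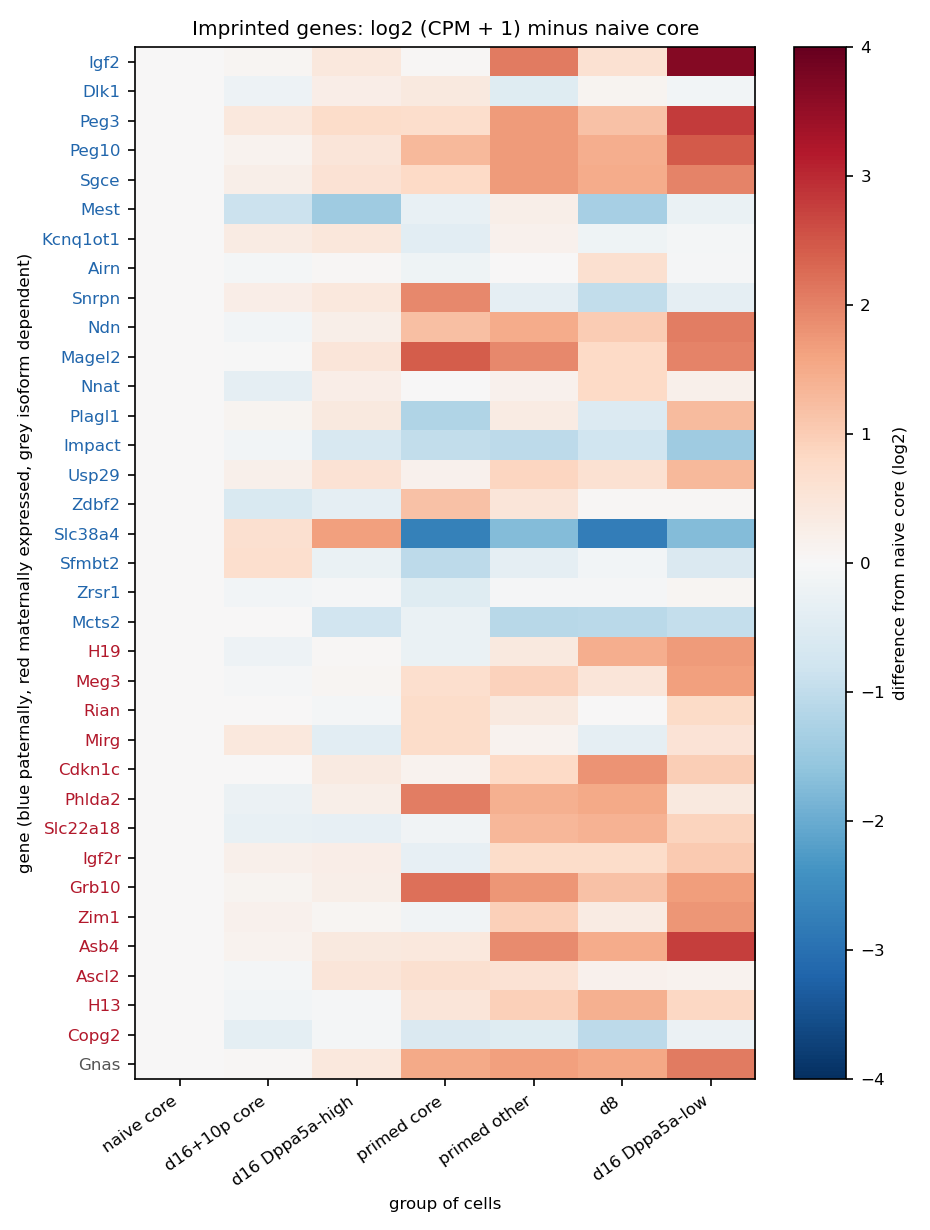
Difference of log2 (CPM + 1) from the naive core for the 35 imprinted genes (rows) in 7 groups of cells (columns), with paternally expressed genes named in blue, maternally expressed genes in red and Gnas in grey. The d16+10p column is close to 0 throughout (Mest lowest, at -0.86 of the genes with enough reads), whereas the primed core and the Dppa5a-low cells hold strong differences, with Slc38a4 low in both and high in the Dppa5a-high cells.

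The primed core was compared with the naive core to ask where the starting cells and the target state differed. Of the 27 imprinted genes with enough reads, 7 were past 2-fold higher and 3 past 2-fold lower in primed cells. Among all 11868 genes tested, 4.70% were past 2-fold higher and 7.33% lower. The median log2 ratio was -0.26 over 15 paternally expressed genes and 0.50 over 11 maternally expressed genes, beside 0.01 over all genes. The genes past 2-fold higher were Grb10 and Phlda2 of the maternally expressed genes, Snrpn, Ndn, Peg10 and Zdbf2 of the paternally expressed genes, and Gnas. Those past 2-fold lower, Slc38a4, Plagl1 and Sfmbt2, are all paternally expressed.

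Grb10 encodes an adaptor protein that dampens signalling from the insulin and insulin-like growth factor receptors. It was at 50.8 CPM in the naive core, 240 CPM in the primed core, 116 CPM in d8, 60.6 CPM in the Dppa5a-high cells and 55.4 CPM in the d16+10p core. Of these groups the primed core was highest, and d8 lay between it and the naive core. The Dppa5a-high cells and the d16+10p core were near the naive level. The primed to naive ratio was 4.64-fold (log2 2.22, 2.11 to 2.36). Grb10 lies on chromosome 11, whose 900 tested genes had a median log2 ratio that differed by -0.21 from that of the autosomes in this comparison. The part of this difference in the ratio of Grb10 was not tested.

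Phlda2, a maternally expressed gene of the Kcnq1ot1 domain that restrains growth of the placenta, took the same course. Its level was 11.3 CPM in the naive core, 49.9 CPM in the primed core, 34.2 CPM in d8, 13.3 CPM in the Dppa5a-high cells and 9.32 CPM in the d16+10p core, and the primed to naive ratio was 4.15-fold (log2 2.05, 1.88 to 2.43). Of the other genes of that domain, the 2 with enough reads were not past 2-fold higher. Kcnq1ot1, the paternally expressed noncoding RNA that silences the domain in cis, was at 39.4 CPM in the naive and 29.4 CPM in the primed core (log2 -0.41), and Cdkn1c, an inhibitor of cyclin-dependent kinases, was at 4.97 and 5.56 CPM, within counting error and at background in both cores.

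Snrpn, which encodes a protein of the splicing machinery and lies in the domain of Prader-Willi syndrome, was at 62.1 CPM in the naive core and 237 CPM in the primed core, a ratio of 3.77-fold (log2 1.91, 1.81 to 2.05). It then stood at 30.8 CPM in d8, 84.1 CPM in the Dppa5a-high cells and 75.3 CPM in the d16+10p core. In the same domain, Ndn, a member of the MAGE family that is known from neurons, was at 15.3 CPM in naive and 36.9 CPM in primed cells (log2 1.22, 1.02 to 1.53). Magel2, its neighbour and relative, had too few reads for the comparison, with 0.47 CPM (0.17 to 1.01) in the naive core and 6.77 CPM (5.25 to 8.60) in the primed core. Snrpn and Ndn were thus highest in the primed core among the pluripotent groups.

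Peg10, a gene derived from a retrotransposon and needed in the placenta, was at 77.1 CPM in the naive core and 190 CPM in the primed core (log2 1.29, 1.19 to 1.41). Its neighbour Sgce, which encodes epsilon-sarcoglycan and shares the control region, was at 14.99 and 27.0 CPM (log2 0.81, 0.58 to 1.12), in the same direction but within 2-fold. Zdbf2, a zinc finger gene known for its effect on growth after birth, was at 35.1 and 79.6 CPM (log2 1.16, 1.01 to 1.35). Gnas, which encodes the stimulatory G protein subunit among other products, was at 331 and 953.95 CPM (2.87-fold, log2 1.52). The naive levels of Peg10, Sgce and Gnas lay just above the limit for background given above. Peg10 and Sgce lie on chromosome 6, whose median log2 ratio differed by -0.27 from that of the autosomes. The part of this difference in their ratios was not tested.

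Slc38a4, an amino acid transporter of liver and placenta, had the strongest difference of the other sign. It was at 34.9 CPM (31.8 to 38.3) in the naive core and 4.55 CPM (3.32 to 6.09) in the primed core, close to the 3.26 CPM of the lowest cluster of the library (log2 -2.70, -3.42 to -2.50). Plagl1, a zinc finger transcription factor that restrains the cell cycle, was at 80.3 and 34.0 CPM (log2 -1.22, -1.42 to -1.06), and the primed value was 1.06 times that of its lowest cluster. Sfmbt2, a Polycomb group gene of the placenta, was at 18.7 and 8.49 CPM (log2 -1.05, -1.52 to -0.78). Impact, a regulator of the GCN2 kinase, was at 146 and 73.6 CPM and lay just inside 2-fold (log2 -0.98).

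The maternally expressed noncoding RNAs of the Dlk1-Meg3 domain on chromosome 12, whose silencing is a known defect of some induced pluripotent stem cells, were each higher in the primed than in the naive core, within 2-fold. Meg3 was at 200 CPM in the naive core, 317 CPM in the primed core, 277 CPM in d8, 211 CPM in the Dppa5a-high cells and 192 CPM in the d16+10p core. Rian was at 105, 174, 106, 99.6 and 107 CPM and Mirg at 15.4, 26.2, 11.7, 11.3 and 21.0 CPM in the same order. All 3 RNAs were highest in the primed core of these groups, with Mirg past 2-fold lower at d8 and in the Dppa5a-high cells and the others within 2-fold, and stood in each pluripotent group at 1.30 to 5.73 times the level of their lowest cluster. Dlk1, the paternally expressed gene of the domain, was at 0.90 to 1.82 CPM in these pluripotent groups and could not be compared.

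**Figure D2:**
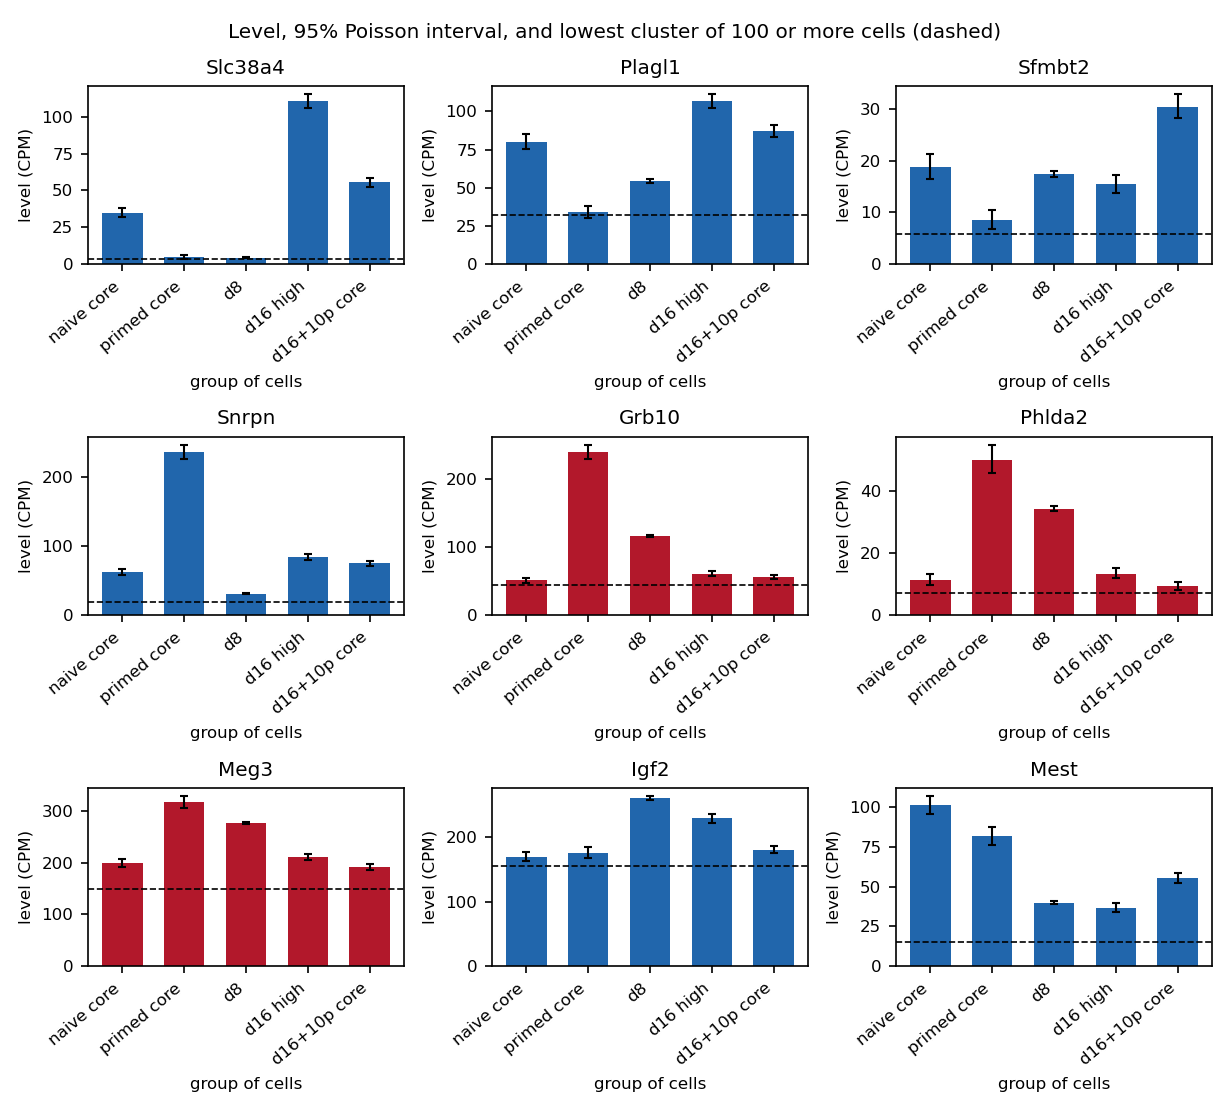
Level in CPM (bars from 0) of 9 imprinted genes in 5 groups, with exact Poisson 95% intervals (whiskers, counting error only) and the level in the lowest cluster of at least 100 cells (dashed line); blue marks paternally and red maternally expressed genes. Grb10, Phlda2 and Snrpn peak in the primed core, Slc38a4 peaks in the Dppa5a-high cells at 111 CPM, and Igf2 stays near its dashed line of 155 CPM in the cores.

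The promoters of 4 genes past 2-fold between the primed and naive cores, and that of Mest, which had the lowest ratio of the d16+10p to the naive core, are shown because ZFP57, the factor that keeps imprints, recognises the hexamer TGCCGC when it is methylated. Of the 35 genes, 30 matched RefSeq promoter windows (GRCm38.p6, 250 bases before to 50 after a transcription start, 300 bases in all), with 48 windows in total. The hexamer was searched on both strands, and was found in 12 of the 48 windows (25%), against 3813 of 32851 windows (11.6%) of 27025 genes. Windows of a gene can overlap, so a site can count in more than 1 window. The median number of CpG dinucleotides was 12 in the windows of imprinted genes and 7 in all windows. These are descriptions of windows of fixed length, and a match is not a binding site. For each of 5 genes, the window with the most hexamers was chosen, so the numbers in the stretches below follow from that choice. Its 250 bases before the start are given 5′ to 3′ on the strand of the gene. TGCCGC and its reverse complement GCGGCA are in capitals.
Slc38a4, chr15:97055957-97056206, minus strand: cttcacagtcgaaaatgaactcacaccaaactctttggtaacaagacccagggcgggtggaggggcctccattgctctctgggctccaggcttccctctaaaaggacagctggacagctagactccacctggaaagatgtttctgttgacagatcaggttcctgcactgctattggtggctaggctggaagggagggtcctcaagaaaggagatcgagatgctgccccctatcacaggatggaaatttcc
Plagl1, chr10:13090582-13090831, plus strand: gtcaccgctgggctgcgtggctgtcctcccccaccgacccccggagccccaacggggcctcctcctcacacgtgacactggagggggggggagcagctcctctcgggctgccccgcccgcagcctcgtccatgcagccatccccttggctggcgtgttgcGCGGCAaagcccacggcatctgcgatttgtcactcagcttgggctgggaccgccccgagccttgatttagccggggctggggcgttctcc
Mest, chr6:30737800-30738049, plus strand: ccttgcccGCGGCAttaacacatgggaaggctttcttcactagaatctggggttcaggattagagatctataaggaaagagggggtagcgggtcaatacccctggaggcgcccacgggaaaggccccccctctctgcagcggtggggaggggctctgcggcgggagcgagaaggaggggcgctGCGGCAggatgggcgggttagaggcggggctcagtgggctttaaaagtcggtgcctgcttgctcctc
Zdbf2, chr1:63200108-63200357, plus strand: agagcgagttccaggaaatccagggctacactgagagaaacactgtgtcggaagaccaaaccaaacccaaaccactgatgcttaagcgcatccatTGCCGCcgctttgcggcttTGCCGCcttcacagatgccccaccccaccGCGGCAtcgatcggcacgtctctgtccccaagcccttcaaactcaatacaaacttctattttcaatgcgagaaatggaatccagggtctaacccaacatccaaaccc
Grb10, chr11:12037421-12037670, minus strand: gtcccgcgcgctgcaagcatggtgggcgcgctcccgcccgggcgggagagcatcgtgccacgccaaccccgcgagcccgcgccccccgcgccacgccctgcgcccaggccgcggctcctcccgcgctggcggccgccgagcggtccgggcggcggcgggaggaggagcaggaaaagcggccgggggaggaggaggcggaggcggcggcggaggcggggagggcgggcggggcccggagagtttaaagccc
The stretch of Zdbf2 held 3 hexamers, that of Mest 2 and that of Plagl1 1, whereas the stretches of Slc38a4 and Grb10 held none. The other window of Zdbf2 held 0, and the other windows of Mest held 0 and 2. The Mest window with 2 (chr6:30737803-30738102) overlaps the printed one and holds the same sites. None of the 3 windows of Slc38a4 held the hexamer, and the window of Grb10 held 1 in its transcribed end, which is not printed. The stretch of Grb10 was the richest in CpG of these 5, with 40, and that of Slc38a4 the poorest, with 3. Printed stretches with and without the hexamer belonged to genes higher and to genes lower in primed than in naive cells.

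At d8, when most cells had lost Pou5f1, the population was compared as a whole with the primed core, and fewer cells of a type and less RNA per cell cannot be told apart in such sums. Of 28 imprinted genes with enough reads, 5 were past 2-fold higher and 5 lower, beside 13.9% higher and 7.98% lower among all 12051 genes tested. The 5 higher genes were all maternally expressed and the 5 lower genes were Snrpn, Mest, Zdbf2, Grb10 and Mirg. Snrpn was lowest against the primed core, at 30.8 against 237 CPM (log2 -2.90, -3.01 to -2.87). H19, the growth-restraining noncoding RNA next to Igf2, was at 23.1 against 6.37 CPM (log2 1.71, 1.497 to 2.24), and Cdkn1c at 19.7 against 5.56 CPM (log2 1.66, 1.44 to 2.23). Igf2r, the receptor that clears IGF2 from the cell surface, was at 88.1 against 42.2 CPM (log2 1.05, 0.92 to 1.21). Asb4, a subunit of a ubiquitin ligase, was at 55.0 against 26.0 CPM (log2 1.05), a ratio that was -0.03 against all primed-tagged cells in place of the core, and Slc22a18, a transporter of the Kcnq1ot1 domain, was at 7.90 against 2.12 CPM (log2 1.51). Against all primed-tagged cells, Slc22a18 (log2 0.42), Igf2r (0.28), Grb10 (-0.76), Mirg (-0.75) and Zdbf2 (-0.73) were also within 2-fold. H19, Cdkn1c and Slc22a18 were at background in the primed core by the measure above. The number past 2-fold fell from 10 to 5 against all primed-tagged cells and to 2 with a pseudocount of 10 CPM. Slc38a4 was as low in d8 (4.34 CPM) as in the primed core.

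In the Dppa5a-high cells that had appeared by d16, most of the genes that were higher in primed than in naive cells were low again. Against the primed core, 2 of 28 imprinted genes were past 2-fold higher and 7 lower, beside 9.09% higher and 3.46% lower among 12118 genes tested. The median log2 ratio was 0.19 over 16 paternally expressed genes and -0.54 over 11 maternally expressed genes, beside 0.09 over all genes. The 7 lower genes were Grb10 (log2 -1.97), Phlda2 (-1.83), Zdbf2 (-1.51), Snrpn (-1.48), Mest (-1.14), Mirg (-1.14) and Gnas (-1.10), of which all but Mest and Mirg had been past 2-fold higher in primed than in naive cells. The higher genes were Slc38a4 and Plagl1, both of which had been lower in primed than in naive cells. With all primed-tagged cells in place of the core, 6 of these 9 genes were still past 2-fold, whereas Plagl1 (log2 0.45), Snrpn (-0.45) and Mirg (-0.79) were not. The naive and the Dppa5a-high groups were each compared with the same primed core, so the comparisons share it.

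Slc38a4 had the largest ratio of the imprinted genes, and went past the naive level. It was at 111 CPM (106 to 115) in the Dppa5a-high cells, 20.1-fold above the primed core (log2 4.33, 4.18 to 5.06), where the naive core had 34.9 CPM. After 10 passages in 2iL it was at 55.5 CPM, between these levels. Cluster 5, which held 1137 of the Dppa5a-high cells, had the highest level of all clusters (118 CPM), followed by the d16+10p home cluster at 55.7 CPM, and Slc38a4 was among the 10 genes with the largest fold in cluster 5, beside genes of germ cells such as Dazl and Stra8.

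The difference in Slc38a4 was also seen in the share of cells with a read. After random thinning to 5000 reads a cell, which drops cells with fewer reads (40 of the Dppa5a-high cells and 6 to 11 of each core), 436 of 1238 Dppa5a-high cells (35.2%, exact interval 32.6 to 38.0%) had a Slc38a4 read, against 20.9% (18.3 to 23.8%) of the d16+10p core and 11.4% (8.77 to 14.5%) of the naive core. The share was 2.45% in the primed core, 1.94% in d8 and 2.91% in the Dppa5a-low cells, near the 2.41% (1.48 to 3.70%) of the macrophage-like cluster, whose cells had a median of 17427.5 reads. Without thinning the shares were 57.8% in the Dppa5a-high cells, 48.7% in the d16+10p core, 35.5% in the naive core, 7.89% in the primed core and 6.93% in the macrophage-like cluster. Thinned shares of Snrpn were 59.8% in the primed core and 24.8 to 29.9% in the other pluripotent groups, and those of Grb10 were 60.3% and 18.5 to 23.8%. For Grb10 the macrophage-like cluster, with 18.6%, stood at the level of the naive core.

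Mest, which encodes a hydrolase-like protein linked to growth and shares its domain with Copg2, did not follow the common course. It was at 101 CPM in the naive core and 82.1 CPM in the primed core, at 39.8 CPM in d8 and 36.8 CPM in the Dppa5a-high cells, and at 55.3 CPM in the d16+10p core. The reverted groups were thus below both the primed and the naive core, and the expanded cells were above the Dppa5a-high cells (log2 0.57, 0.46 to 0.72) and below the naive core (log2 -0.86, -0.99 to -0.76).

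After 10 passages in 2iL, no imprinted gene differed past 2-fold from the naive core. Of 26 genes with enough reads, 0 were higher and 0 lower, beside 1.03% higher and 1.17% lower among 11876 genes tested, so that few calls were to be met in a set of this size. The log2 ratios ran from -0.86 (Mest) to 0.67 (Sfmbt2), with a median of 0.12 over 15 paternally expressed genes and -0.01 over 10 maternally expressed genes. Beyond counting error, 11 genes were higher and 4 were lower, beside 3221 higher and 2687 lower among the 11876 genes tested. Sfmbt2 was at 30.4 against 18.7 CPM (log2 0.67, 0.49 to 0.92) and Slc38a4 at 55.5 against 34.9 CPM (log2 0.65, 0.51 to 0.83). Peg3 was at 153 against 114 CPM (log2 0.42), with a naive level that may be background by the measure above. Zdbf2 was at 22.5 against 35.1 CPM (log2 -0.62, -0.83 to -0.46). Mest and Copg2 (log2 -0.38) lie on chromosome 6. The median of its 558 tested genes differed by -0.27 from that of the autosomes in this comparison. Peg10 (0.15) and Sgce (0.24), on the same chromosome, were higher, from naive levels that may be background. Peg10 was also at background in the d16+10p core. The part of the chromosome-wide difference in the values of these genes was not tested.

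**Figure D3:**
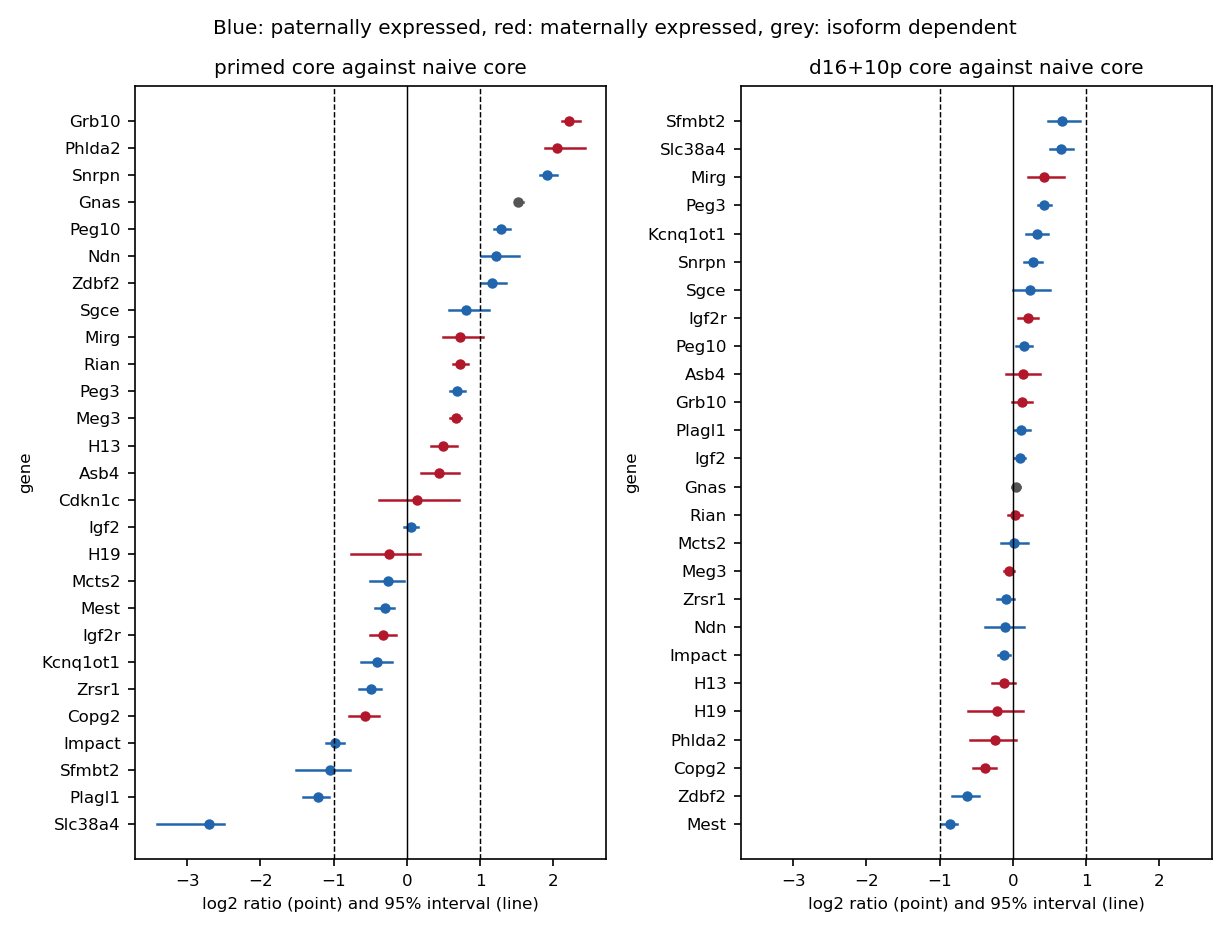
Log2 ratio (points) and 95% interval (lines, counting error only) of each imprinted gene with enough reads, for the primed core (left) and the d16+10p core (right) against the naive core, with the same horizontal scale and dashed lines at 2-fold. The ratios run from -2.70 to 2.22 on the left, with 10 genes past 2-fold, and from -0.86 to 0.67 on the right, with 0.

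Against the Dppa5a-high cells, the d16+10p core likewise had 0 of 28 imprinted genes past 2-fold in either direction, beside 0.643% higher and 1.78% lower among 12139 genes tested. The log2 ratios ran from -0.98 (Slc38a4) to 0.93 (Sfmbt2). Beyond counting error, 17 genes were lower and 6 were higher, beside 4761 lower and 2593 higher among the 12139 genes tested. The median was -0.25 over all 28, beside -0.09 over all genes. The 6 higher genes were Sfmbt2, Mirg (log2 0.84), Mcts2 (0.79), Mest (0.57), Impact (0.51) and Rian (0.10). Impact and Mcts2, a retrogene within an intron of H13, were at 134 and 31.0 CPM in the d16+10p core, near the 146 and 30.5 CPM of the naive core, and at 93.5 and 17.5 CPM in the Dppa5a-high cells.

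The highest levels of many imprinted genes were found outside the pluripotent cells. In the Dppa5a-low cells of d16, the 35 genes took 0.694% of all reads, against 0.223% in the Dppa5a-high cells, 0.306% in d8 and 0.191 to 0.319% in the cores. Igf2 and Gnas made up much of this sum, at 2192 and 1405 CPM in the Dppa5a-low cells and 230 and 444 CPM in the Dppa5a-high cells. Of 28 genes with enough reads, 11 were past 2-fold higher and 1 lower in the Dppa5a-low cells, beside 16.0% higher and 10.6% lower among 12828 genes tested. The median log2 ratio was 0.56 over 16 paternally expressed genes and 0.88 over 11 maternally expressed genes, beside 0.04 over all genes.

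Igf2, the fetal growth factor, was at 2192 CPM in the Dppa5a-low cells and 230 CPM in the Dppa5a-high cells (9.51-fold, log2 3.25), and the cores held 170 to 181 CPM, 1.09 to 1.17 times the lowest cluster. Asb4 was at 134 and 25.1 CPM (log2 2.37), Peg3, a zinc finger gene with roles in growth and maternal behaviour, at 797 and 189 CPM (log2 2.07), and Peg10 at 425 and 107 CPM (log2 1.98). Also past 2-fold higher were Ndn (log2 1.81), H19 (1.68), Gnas (1.66), Meg3 (1.55), Sgce (1.43), Grb10 (1.41) and Mest (1.18). The 1 lower gene was Slc38a4, at 9.76 against 111 CPM (log2 -3.38, -3.67 to -3.34). Snrpn (log2 -0.80), Impact (-0.80) and Kcnq1ot1 (-0.51) were lower within 2-fold.

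**Figure D4:**
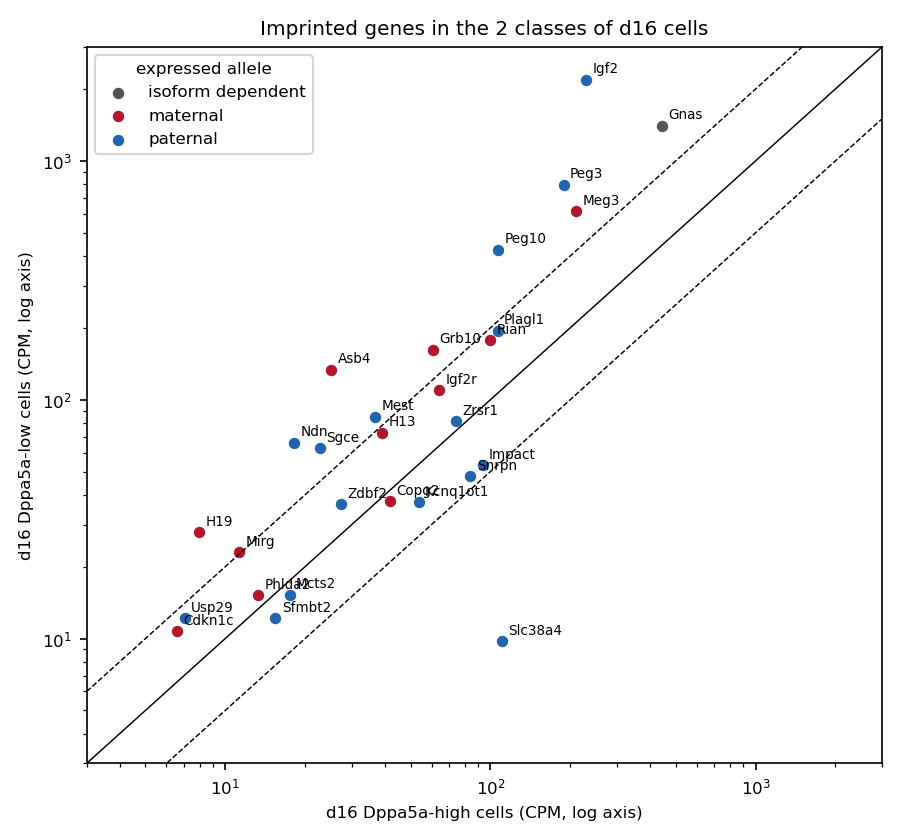
Level in CPM (log axes) of the 28 imprinted genes with enough reads in the 1278 Dppa5a-high cells (horizontal) and the 3037 Dppa5a-low cells (vertical) of d16, with the line of equal levels (solid) and lines at 2-fold (dashed). Igf2 stands farthest above the lines, at 230 and 2192 CPM, and Slc38a4 is alone below them, at 111 and 9.76 CPM.

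Cells of the other tags that lay outside the cores also held several of these genes at high levels. Whether these cells came from the population of their tag was not tested. Igf2 was at 716 CPM in primed-tagged cells outside the core and at 176 CPM in the primed core, and at 538 and 170 CPM in naive-tagged cells outside and inside theirs. Peg3 was at 371 and 185 CPM and Asb4 at 72.9 and 26.0 CPM in the primed tag, in the same order. Snrpn and Grb10 went the other way in the primed tag, at 48.6 and 175 CPM outside against 237 and 240 CPM inside the core. Comparing all cells of the primed and naive tags left 4 genes past 2-fold in place of 10. Of the 6 others, Snrpn (log2 0.97), Ndn (0.97) and Peg10 (0.94) were just within 2-fold, and Zdbf2 (0.75), Sfmbt2 (-0.53) and Plagl1 (-0.12) further inside it.

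Across the 16 clusters with at least 100 cells, the genes of 1 domain often had different highest clusters. A neural-like cluster with Dcx (cluster 13, 270 cells) held the highest level of 7 genes, among them Ndn (229 CPM), Magel2 (78.2 CPM), Zdbf2 (135 CPM) and Peg10 (679 CPM). Its median of 5369 reads per cell was the lowest of all clusters. A neural-like cluster with Fabp7 (cluster 3) was highest for Peg3 (998 CPM), Rian (218 CPM) and Sgce (72.0 CPM). Cluster 6, a fibroblast-like cluster with Col3a1 made up to 67.2% of d16 cells, was highest for Igf2 (3352 CPM), Igf2r (212 CPM), Plagl1 (324 CPM) and Zim1 (11.9 CPM). H19, by contrast, was highest in cluster 1, a fibroblast-like cluster with Lox that was mostly of d8 cells, at 68.8 CPM, together with Cdkn1c (53.9 CPM) and H13, which encodes signal peptide peptidase (158 CPM).

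Among the other clusters, an endoderm-like cluster with Cer1 and Gata6 (cluster 9) was highest for Mest (320 CPM), Grb10 (504 CPM), Asb4 (402 CPM) and Copg2 (57.5 CPM). An epithelial-like cluster (cluster 14) was highest for Slc22a18 (45.7 CPM), 42.1 times the lowest cluster, and for Kcnq1ot1 (64.7 CPM). Another epithelial-like cluster (cluster 0) was highest for Phlda2 (74.7 CPM) and Sfmbt2 (37.4 CPM). An unnamed cluster of 130 cells (cluster 15, 84.6% of it d16 cells) was led by Hp, Fgg, S100g and Psca. It was highest for Meg3 (1002.5 CPM) and Mirg (35.5 CPM). The next levels were 813 CPM of Meg3 in cluster 13 and 25.8 CPM of Mirg in the primed-like cluster. Pluripotent clusters were the highest for only 4 genes, namely Snrpn (236 CPM) in the primed-like cluster, Impact (145 CPM) and Mcts2 (30.8 CPM) in the naive-like cluster of naive cells, and Slc38a4 in cluster 5. Zrsr1, a retrogene for a splicing factor, varied least of the genes above 5 CPM in the pooled cells, from 53.8 CPM in the primed-like cluster to 103 CPM in cluster 13. The most frequent tag made up 39.3% (cluster 13) to 97.4% (cluster 12) of the cells of a cluster, so that cell type and treatment cannot be told apart in these levels.

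**Figure D5:**
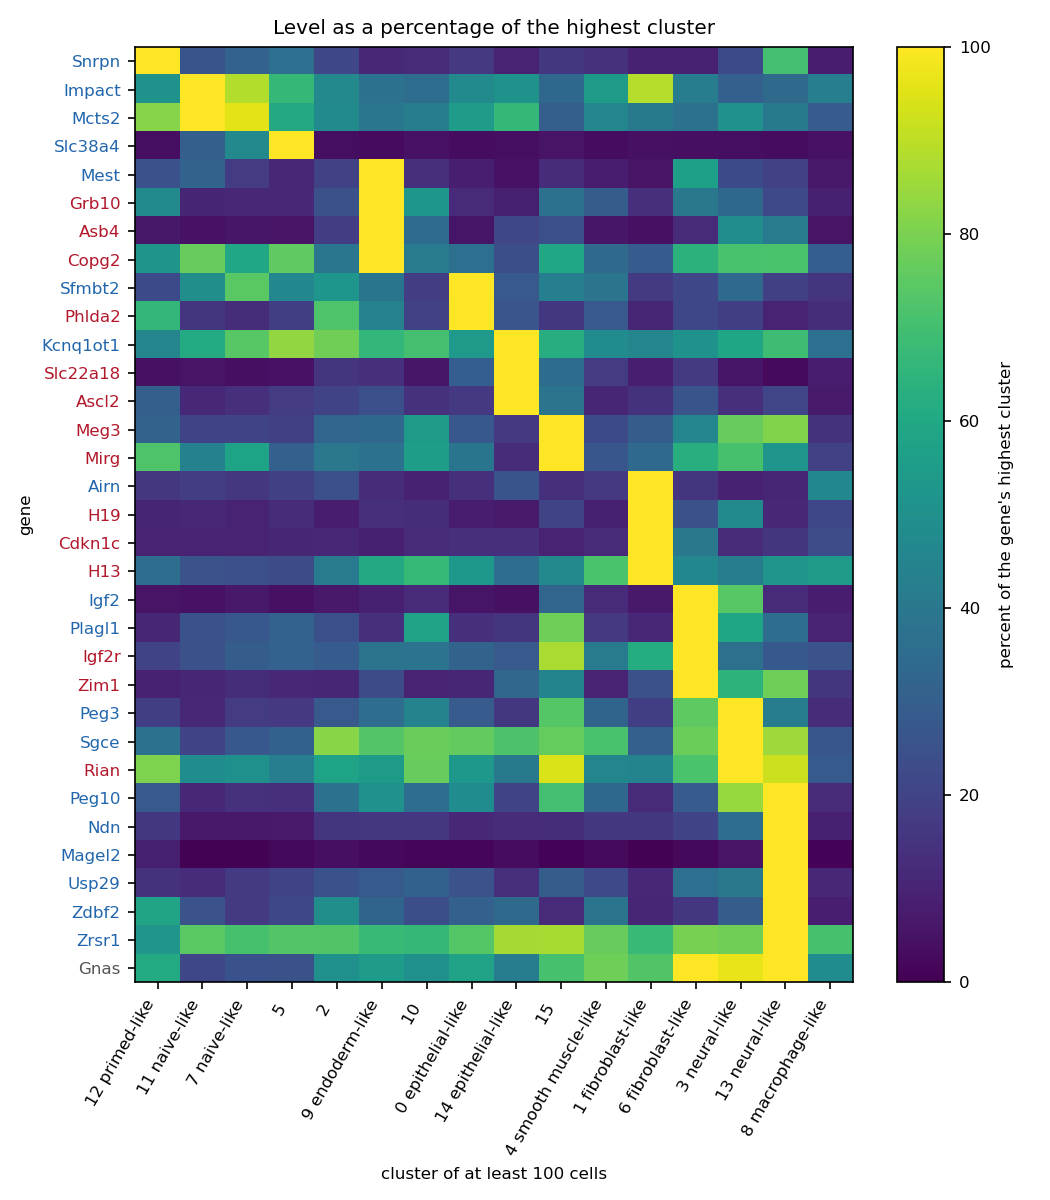
Level of 33 imprinted genes (rows) in 16 clusters of at least 100 cells (columns), as a percentage of the gene's highest cluster, from 0 (dark) to 100 (yellow); gene names are blue for paternally and red for maternally expressed genes. Only 4 genes have their highest level in the 4 pluripotent clusters at the left, and Magel2 is nearly dark outside cluster 13.

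A small cluster of 55 cells with genes of the 2-cell stage, 49 of them from d16, held a high level of Kcnq1ot1. It was at 138 CPM (113 to 167) there, above the 64.7 CPM of the highest larger cluster, from 108 reads. Of the other genes of the domain, Cdkn1c was at 42.2 CPM (29.1 to 59.3), below the 53.9 CPM of cluster 1, Phlda2 at 12.8 CPM and Slc22a18 at 3.84 CPM, from 33, 10 and 3 reads. Slc38a4 was at 39.7 CPM (27.0 to 56.3) in these cells.

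Genes that keep imprints were read as well. Of 12 such genes, 2 were past 2-fold lower in the primed than in the naive core, beside 7.33% of all genes, namely Zfp57 at 16.6 against 78.7 CPM (log2 -2.18) and Dppa3, which protects the maternal marks in the early embryo, at 6.57 against 29.8 CPM (log2 -2.03). Both were past 2-fold higher in the Dppa5a-high cells than in the primed core, beside 9.09% of all genes. In the Dppa5a-high cells, Zfp57 was at 50.3 CPM and Dppa3 at 119 CPM. In the d16+10p core, Zfp57 was at 87.3 CPM, close to the naive core. Dppa3 was at 150 CPM, past 2-fold above the naive core (log2 2.296), beside 1.03% of all genes. No gene of the 12 was past 2-fold between the d16+10p core and the Dppa5a-high cells. Of all genes, 0.643% were past 2-fold higher and 1.78% lower in that comparison. At such shares a list of 12 is too short for a result. In the Dppa5a-low cells 6 of the 12 were past 2-fold lower than in the Dppa5a-high cells (Dppa3, Zfp57, Uhrf1, Hells, Trim28 and Dnmt1), beside 10.6% of all genes. At d8, 4 were past 2-fold lower than in the primed core (Uhrf1, Trim28, Dnmt1 and Hells), beside 7.98% of all genes. Ctcf, Setdb1, Zfp445, Smchd1, Arid4a and Arid4b were past 2-fold in none of the 6 comparisons.

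A list of 12 further imprinted genes was read as well, of which 8 had enough reads. In the comparisons among the pluripotent groups, 0 of these 8 were past 2-fold, beside 0.643% to 9.09% of all genes in each direction. A list of 8 is too short for a result at such shares. Higher were 2 of the 8 in the Dppa5a-low cells, beside 16.0% of all genes, and 2 in d8, beside 13.9%, so that so small a number is no result about the list. Osbpl5, a maternally expressed gene at the edge of the Kcnq1ot1 domain, was past 2-fold higher in the Dppa5a-low than in the Dppa5a-high cells (28.0 against 9.68 CPM) and in d8 than in the primed core (31.6 against 6.98 CPM). Ppp1r9a, of the Peg10 region, was past 2-fold higher in the Dppa5a-low cells (48.0 against 21.9 CPM), and Blcap, next to Nnat, in d8 (60.9 against 21.1 CPM).

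Of the 35 genes, some had too few reads to be compared between pluripotent groups. Dlk1, Airn, Nnat, Zim1, Ascl2, Slc22a18 and Magel2 were below 7 CPM in each core. Nnat, known from neurons, was at 0.09 to 0.67 CPM in the pluripotent groups, and Ascl2, a transcription factor of the placenta, at 0.54 to 1.52 CPM. Airn, the noncoding RNA that silences Igf2r, was at 0.71 to 1.01 CPM. Its gene overlaps Igf2r on the other strand, and no strand setting of the counting is given in the sources used here, so reads of such pairs, and those of the overlapping ends of Mest and Copg2, may be mixed. Usp29, a deubiquitinase gene of the Peg3 domain, was at 4.35 to 7.03 CPM in the pluripotent groups.

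The positions of the genes the text turns on are those of GENCODE M21 (GRCm38). Slc38a4 lies on chromosome 15 from 96994820 to 97055956, Grb10 on chromosome 11 from 11930508 to 12038683, and Plagl1 on chromosome 10 from 13060504 to 13131694. Snrpn lies on chromosome 7 from 59982495 to 60140219, Phlda2 on chromosome 7 from 143501545 to 143503150 and Igf2 on chromosome 7 from 142650766 to 142666816. Mest lies on chromosome 6 from 30723547 to 30748465, Zdbf2 on chromosome 1 from 63273265 to 63314576 and Meg3 on chromosome 12 from 109541001 to 109571726. The RefSeq start of Zdbf2 printed above lies upstream of this interval, at a second annotated start.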

How the data were processed

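The deposited values are raw counts of reads, given as whole numbers for every symbol in every cell. To make them, the authors trimmed reads with cutadapt 2.10, mapped them with Bowtie2 2.3.4.1 to the Ensembl transcript set (cDNA with ncRNA) of GRCm38.p6, counted them per gene symbol and barcode, assigned cells by tag, and removed cells with the lowest ratio of the first to the next tag as doublets; no doublet caller was run here. Molecular identifiers are not described, so counts were taken as reads, which amplification makes dependent on each other. No strand setting is given in the sources used here. Reads of near-identical copies (Mcts2 and Mcts1, Zrsr1 and Zrsr2), and of Snurf and Snrpn, which share a transcript, may be split or shared.

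Counts were summed per group with numpy 2.4.6 and pandas 2.3.3 and scaled to CPM. Levels have exact Poisson and ratios exact binomial 95% intervals (scipy 1.17.1), the latter without the pseudocount, so that they are not centred on the ratio. Clusters came from Seurat 5.3.0 under R 4.3.3 (2000 variable genes, 9 of the imprinted genes having been removed from them, 56 principal components, 50 neighbours, resolution 0.8). A cluster was Pou5f1-high at 25% or more of the highest cluster's Pou5f1 level with 75% or more of cells read. The home cluster of a tag was the Pou5f1-high cluster most enriched in that tag (50 cells or more of it). Cluster names rest on fixed marker lists. By rules set after the clusters were seen, a cluster ahead by 1 marker with none among its 10 top genes stayed unnamed, and names of pluripotent states went to Pou5f1-high clusters. Clusters rebuilt here can differ from those of the study. Genes named are the 35, the 12 upkeep genes and the 12 further imprinted genes where past 2-fold, and the background and marker genes. The genes and lists were chosen with earlier results of these data known. The sums and intervals were tested on simulated counts.

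Alternatives were all cells of a tag, any Pou5f1-high cluster, clustering with the imprinted genes or at resolution 0.4, Dppa5a limits of 500 and 2000 CPM, a pseudocount of 10 CPM, TMM scaling (edgeR 4.0.16), the mean of CPM per cell, cells with over 2000 and under 8000 genes, cells thinned to 5000 reads, no filter on low genes and a minimum of 20 CPM. All columns of cells were used.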

Additional observations from a re-analysis of the deposited data

How the results depend on the processing

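No paired analysis was possible because each population was 1 sample and no test was made. Of 68 alternative counts of imprinted genes past 2-fold, 58 were within 1.5 times the count reported. Between the primed and naive cores the count went from 10 to 4 with all cells of the tags. Between the d16+10p core and the Dppa5a-high cells it went from 0 to 1 with all cells of the tags, 1 with TMM scaling, 1 with the mean of CPM per cell, 1 with Dppa5a split at 2000 CPM and 2 with cells thinned to 5000 reads. Between d8 and the primed core it went from 10 to 5 with all cells of the tags, 2 with a pseudocount of 10 CPM, 6 with thinned cells and 6 with a mean of at least 20 CPM. The count of 0 between the d16+10p and naive cores did not change under the alternatives run. Of 445 alternative values of single genes, 316 moved by less than their interval, 128 moved further, and Asb4 between d8 and the primed core changed sign, to -0.033 with all cells of the tag. Of 136 alternative medians, 22 moved. TMM scaling shifted the median of all genes by 0.13 between the d16+10p core and the Dppa5a-high cells, and the share of calls that were higher from 26.5% to 43.4%, and by -0.10 between the Dppa5a-high cells and the primed core. With all cells of the tags, the share of higher calls went from 72.5% to 56.4% in that last comparison and from 63.5% to 52.1% between d8 and the primed core. Depth limits the genes below 5 CPM, for which no direction is given.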
